A study of Homo sapiens with 6 samples.

Results

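The S100 proteins are small calcium-binding proteins, and 10 of their genes were followed here after BRCA1 was overexpressed in a cervical cancer cell line: S100A2, S100A4, S100A6, S100A7, S100A8, S100A9, S100A10, S100A11, S100A16 and S100P. The genes were chosen by name, with earlier results of these data known. Their values were read from a table of 58174 genes, of which 21 are S100 genes that code for a protein. SiHa is an established cervical squamous carcinoma line, and its cells were transfected with the plasmid GV230-BRCA1, which carries BRCA1 (OV-BRCA1 group, 3 samples), or with the empty GV230 plasmid (NC group, 3 samples), and mRNA was sequenced 48 h later. All 6 samples therefore carried a plasmid and were exposed to the same transfection reagent. The study's methods call the 3 samples of a group biological replicates. The share of cells that took up plasmid is not given in the sources used here.

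S100 proteins carry a pair of EF-hand calcium-binding loops and mostly form dimers. When calcium binds, the dimer opens and attaches to a target protein such as an annexin or a cytoskeletal protein. Some members are also released from cells, where they act on receptors such as AGER (also called RAGE) and TLR4. Most S100 genes lie together on the long arm of chromosome 1, within and beside the epidermal differentiation complex, a block of genes for the outer layers of squamous epithelium, and several members are used as markers of squamous or inflamed epithelium.

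The values were FPKM, fragments scaled by transcript length and by the number of fragments mapped, summed here over the transcripts of a gene. Differences were tested with limma on log2(FPKM + 1) across the 16321 genes that reached 0.5 FPKM in 3 or more samples, with Benjamini-Hochberg adjustment over all of them, and a gene was called at an adjusted p-value below 0.05. The log2 fold changes are on this scale, which understates the change of low genes. The depth behind the values, estimated from the FPKM that a single fragment gives, was 13.64 to 16.09 M fragments per sample in the OV-BRCA1 group against 15.58 to 19.12 M in the NC group. BRCA1 itself was at 37.1 ± 3.18 FPKM (SD, n = 3) in the OV-BRCA1 group against 18.9 ± 3.56 FPKM (n = 3) in the NC group, with no overlap between them (log2 fold change 0.95, limma adjusted p = 0.00373). The keratin genes KRT17, KRT8 and KRT18 each had at least 188.2 FPKM in every sample, whereas the squamous markers KRT5, TP63, DSG3 and PKP1 stayed under 0.5 FPKM in all 6, so the labelled squamous origin was met by KRT17 but not by these 4 genes. Transcripts of the mitochondrial genome made up 14.8% to 17.2% of all FPKM in the OV-BRCA1 group against 21% to 23.2% in the NC group. When samples were scaled to the FPKM of nuclear protein-coding genes instead, S100A6, S100A10, S100A11, S100P and S100A9 kept the direction and call given below.

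Of the 10 S100 genes, 8 entered the test. S100P, S100A11, S100A16 and S100A9 were higher in the OV-BRCA1 group, S100A6 and S100A10 were lower, and S100A4 and S100A2 were not called. Over all 16321 genes tested, 16.4% were called higher and 18.9% lower, against 4 and 2 of the 8 S100 genes. The 4 became 2 without NC replicate 1, OV-BRCA1 replicate 1 or OV-BRCA1 replicate 2, as S100A9 and S100A16 lost their calls. The groups did not overlap for the 6 called S100 genes, and over all genes tested 23.4% had higher and 27.4% lower OV-BRCA1 values without overlap. With 3 samples against 3, an exact two-sided permutation test of 1 gene cannot go below p = 0.10. None of the 8 also passed an absolute log2 fold change of 1, a criterion met by 3.99% of all genes tested. The median log2 fold change of the 8 S100 genes was 0.14, beside -0.04 over all genes tested. As these are bulk samples, fewer cells expressing a gene and less RNA per cell cannot be told apart.

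**Figure D1:**
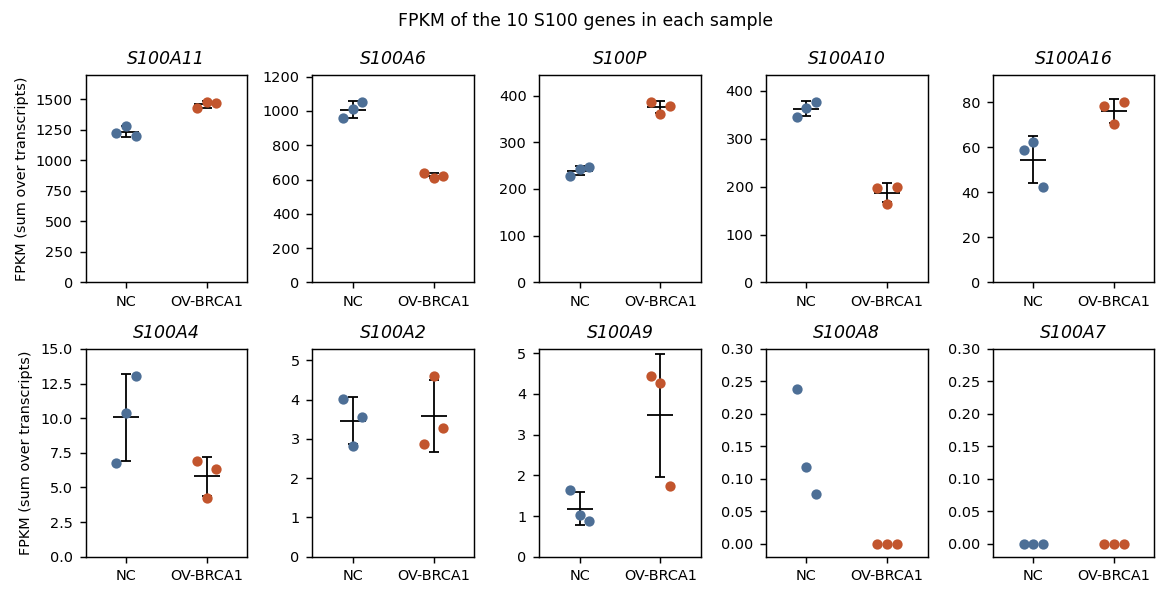
FPKM, summed over the transcripts of each gene, in the 3 NC and the 3 OV-BRCA1 samples; points are samples, and the black bars are the mean ± SD of a group, left out for S100A8 and S100A7 because of their listed zeros. S100A11 and S100P sit higher and S100A6 and S100A10 lower in all 3 OV-BRCA1 samples, whereas the points of S100A4 and S100A2 overlap between the groups.

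The promoters of 4 members are shown, and the use of their starts was not measured. S100A9 and S100A8 code for the 2 partners of one dimer and had different levels. S100A11 was the most abundant member, and the start of S100A16 lies next to the transcript of that gene that differed most. All 10 genes were found among the RefSeq promoter windows, and the sequences are from RefSeq (GRCh38.p14), each up to the base before the RefSeq start and written 5′ to 3′ on the strand of the gene. Bases inside an annotated exon were left out, which shortened S100A11 by 31 bases. Capitals mark a TATA box (TATAAA, searched on the strand of the gene), a GC box (GGGCGG, either strand) or a CCAAT box (CCAAT, either strand).
S100A9, chr1:153357604-153357853, plus strand: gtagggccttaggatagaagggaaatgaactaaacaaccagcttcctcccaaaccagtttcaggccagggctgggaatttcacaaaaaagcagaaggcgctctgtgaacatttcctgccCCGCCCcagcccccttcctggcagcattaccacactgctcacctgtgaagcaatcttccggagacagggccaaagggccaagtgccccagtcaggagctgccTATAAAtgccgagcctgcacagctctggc
S100A8, chr1:153391189-153391438, minus strand: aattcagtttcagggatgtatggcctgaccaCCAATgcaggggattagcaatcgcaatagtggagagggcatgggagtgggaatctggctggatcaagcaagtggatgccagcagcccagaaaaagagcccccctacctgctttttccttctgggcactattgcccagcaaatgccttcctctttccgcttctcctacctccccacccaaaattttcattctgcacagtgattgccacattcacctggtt
S100A11, chr1:152037036-152037254, minus strand: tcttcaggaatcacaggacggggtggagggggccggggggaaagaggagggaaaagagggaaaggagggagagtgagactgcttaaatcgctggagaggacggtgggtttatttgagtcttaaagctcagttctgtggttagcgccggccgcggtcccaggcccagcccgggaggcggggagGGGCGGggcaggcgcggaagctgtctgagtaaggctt
S100A16, chr1:153609356-153609605, minus strand: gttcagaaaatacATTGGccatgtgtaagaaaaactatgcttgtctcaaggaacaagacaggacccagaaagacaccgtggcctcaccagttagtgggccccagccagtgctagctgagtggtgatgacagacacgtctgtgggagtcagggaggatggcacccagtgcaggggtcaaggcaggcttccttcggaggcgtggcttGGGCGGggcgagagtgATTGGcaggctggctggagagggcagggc

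In these windows of 250 bases, the TATA box of S100A9 began 29 bases before the start, and S100A4, S100A7 and S100P held the same letters beginning 31, 28 and 28 bases before theirs. TATAAA was present in 6.82% of the 34943 RefSeq windows of this length. S100A11, S100A16, S100A6, S100A10 and S100A9 held a GC box, which 42.55% of all windows held, and S100A6 held 3 copies that overlap in part. S100A8 held no TATA or GC box and had a CCAAT box, as 32.04% of all windows did, and S100A16 held 2. The AP-1 motif TGANTCA, found in 6.59% of windows, occurred in S100A2 alone, 52 to 46 bases before its start. The motif of NF-kB (either strand, 9.95% of all windows), the GAS motif TTCNNNGAA (6.56%) and the core of the interferon-stimulated response element, GAAA followed after any 2 bases by GAAA (3.02%), did not occur in the windows of the 10 genes. These matches describe letters in 1 window a gene. The whole windows of S100A6, S100A10 and S100P lie inside annotated exons of these same genes and are not printed. Their matches, and the TATAAA of S100A4 and of S100A7, therefore lie within annotated exons.

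S100A11 (ENSG00000163191, chr1:152032506-152047907, minus strand) binds annexin A1 and is found in the cytoplasm and nucleus of epithelial cells. It had the highest level of the family in every sample, with 1427, 1479 and 1471 FPKM in OV-BRCA1 samples 1, 2 and 3 against 1219, 1282 and 1202 FPKM in NC samples 1, 2 and 3. All OV-BRCA1 samples exceeded all NC samples, but by a small margin next to the level itself. The log2 fold change was 0.24 (SE 0.04, 95% confidence interval 0.14 to 0.34, limma adjusted p = 0.00571), a ratio of mean FPKM of 1.18. By mean FPKM, S100A11 ranked 29 among all genes in the OV-BRCA1 group against 32 in the NC group. Its pseudogenes S100A11P1 and S100A11P2 had at most 0.374 FPKM in any sample, and AL450992.1, an antisense gene that overlaps it, had a mean of 0.0096 FPKM in the OV-BRCA1 group and 0 in each NC sample.

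S100A6 (calcyclin, ENSG00000197956, chr1:153534599-153536244, minus strand) binds CACYBP and annexins and is abundant in dividing epithelial and fibroblast cells. Its level was 637.4, 608.9 and 618.1 FPKM in OV-BRCA1 samples 1, 2 and 3 against 957, 1012 and 1054 FPKM in NC samples 1, 2 and 3. The lowest NC sample was far above the highest OV-BRCA1 sample. The level fell by 0.70 on the log2 scale (SE 0.05, limma adjusted p = 1.78e-04), to 0.617 of the mean FPKM of the NC group. S100A6 and S100A11 thus moved in opposite directions, and the ratio of S100A6 to S100A11 came to 0.426 ± 0.018 (SD, 3 samples) in the OV-BRCA1 group against 0.817 ± 0.052 in the NC group. This ratio did not overlap between the groups, which follows from the separate values of both genes. All 5 annotated transcripts of S100A6 had lower values in each OV-BRCA1 sample than in each NC sample, and S100A6-201 made up 79.0% of its FPKM. The antisense gene BX470102.1 shares 517 bases with S100A6 and had means of 0.373 FPKM in the OV-BRCA1 group against 0.880 FPKM in the NC group, and whether strand was used in the quantification is not given in the sources used here.

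S100A10 (p11, ENSG00000197747, chr1:151982915-151994390, minus strand) is the member that does not bind calcium. It forms a tetramer with annexin A2 at the plasma membrane, where it binds plasminogen, and links that complex to AHNAK. Its level was 198, 164.3 and 200 FPKM in OV-BRCA1 samples 1, 2 and 3 against 346, 364 and 377.6 FPKM in NC samples 1, 2 and 3. Each OV-BRCA1 sample was lower than each NC sample by more than the whole spread within either group. The level fell by 0.95 on the log2 scale (SE 0.09, 95% confidence interval -1.16 to -0.75, limma adjusted p = 5.08e-04), and the mean FPKM was 0.517 of that of the NC group. S100A10-202 carried 98.3% of the FPKM of the gene. Its tetramer partner ANXA2 was at 824.3 ± 85.3 FPKM in the OV-BRCA1 group against 874.2 ± 79.0 FPKM in the NC group and was not called (log2 fold change -0.09, limma adjusted p = 0.537). The ratio of S100A10 to ANXA2 was 0.230 ± 0.039 in the OV-BRCA1 group against 0.416 ± 0.026 in the NC group, without overlap. AHNAK, a giant scaffold protein under the plasma membrane, also fell, from 28.9, 29.7 and 30.9 FPKM in NC samples 1, 2 and 3 to 16.7, 15.9 and 15.6 FPKM in OV-BRCA1 samples 1, 2 and 3. Its log2 fold change was -0.85 (SE 0.06, limma adjusted p = 1.55e-04), and the ratio of S100A10 to AHNAK overlapped between the groups at 11.7 ± 1.26 and 12.2 ± 0.155.

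S100P (ENSG00000163993, chr4:6693069-6697170, plus strand) is the member on chromosome 4. It binds ezrin, the product of EZR that ties the plasma membrane to actin, and can be released to act on AGER. Its level was 386.9, 361.4 and 377.7 FPKM in OV-BRCA1 samples 1, 2 and 3 against 227.7, 242.5 and 247 FPKM in NC samples 1, 2 and 3. All OV-BRCA1 samples were higher by more than the spread within the groups. The log2 fold change was 0.65 (SE 0.05, limma adjusted p = 2.67e-04) and the ratio of mean FPKM 1.57. EZR rose as well, with 201.8, 202.3 and 210.1 FPKM in OV-BRCA1 samples against 154.9, 150.7 and 152.5 FPKM in NC samples (log2 fold change 0.42, limma adjusted p = 5.93e-04). The ratio of S100P to EZR was 1.83 ± 0.073 and 1.57 ± 0.084, still without overlap, so S100P differed by more than EZR in every pair of samples. In the NC group S100P was below S100A10 in every sample, and in the OV-BRCA1 group it was above S100A10 in every sample.

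**Figure D2:**
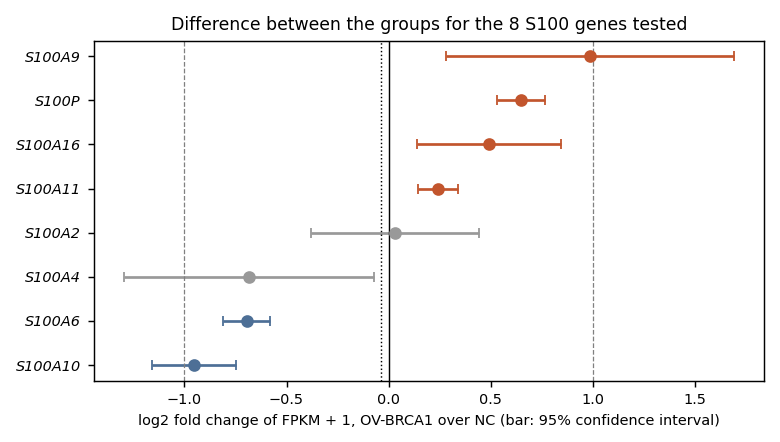
Log2 fold change of FPKM + 1 (OV-BRCA1 over NC) with its 95% confidence interval from limma for the 8 S100 genes tested; orange is called higher, blue called lower and grey not called, the dotted line is the median of all genes tested (-0.04) and the dashed lines mark a log2 fold change of 1 in either direction. S100P, S100A11, S100A6 and S100A10 have narrow intervals on 1 side of 0, and the intervals of S100A9 and S100A4 are the widest.

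S100A16 (ENSG00000188643, chr1:153606886-153613145, minus strand) is a broadly expressed member with weaker calcium binding. Its level was 78.3, 70.3 and 80.3 FPKM in OV-BRCA1 samples 1, 2 and 3 against 58.9, 62.2 and 42.6 FPKM in NC samples 1, 2 and 3. The groups did not overlap, and NC sample 3 lay below the other 2 NC samples. The log2 fold change was 0.49 (SE 0.15) and its limma adjusted p of 0.0419 was close to the threshold. The call was lost without NC replicate 1 (limma adjusted p = 0.0615), OV-BRCA1 replicate 1 (0.106), OV-BRCA1 replicate 2 (0.0666) or OV-BRCA1 replicate 3 (0.113). It was kept without NC replicate 3 (0.0321), but the log2 fold change was then 0.33. It was also lost with samples scaled to the FPKM of nuclear protein-coding genes (0.0531), with the most abundant transcript alone (0.504), without the filter on low values (0.102) and with the replicate number as a block (0.0793).

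The annotation gives S100A16 5 transcripts, and the difference was not spread evenly over them. S100A16-201, the most abundant, had 49.0, 39.5 and 43.0 FPKM in OV-BRCA1 samples 1, 2 and 3 against 39.2, 44.0 and 17.9 FPKM in NC samples 1, 2 and 3, so the groups overlapped and the low value of NC sample 3 lay in this transcript. S100A16-203 had 9.60, 12.8 and 20.3 FPKM in OV-BRCA1 samples 1, 2 and 3 against 1.39, 1.49 and 4.48 FPKM in NC samples 1, 2 and 3. This transcript was higher in every OV-BRCA1 sample (log2 fold change 2.19, SE 0.42, limma adjusted p = 0.0459 over all transcripts tested). S100A16-204 did not pass the test (log2 fold change -0.07, limma adjusted p = 0.821). The start of S100A16-203 lies 11 bases after the RefSeq start at which the S100A16 window above ends, that of S100A16-202, which was under 1 FPKM in every sample and was not called (log2 fold change 0.20, limma adjusted p = 0.452), lies 18 bases after it, that of S100A16-201 lies 1033 bases after it and that of S100A16-204 lies 3728 bases before it. How reads shared by these transcripts were divided is not given in the sources used here, so the values of single transcripts are less certain than the gene sum.

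**Figure D3:**
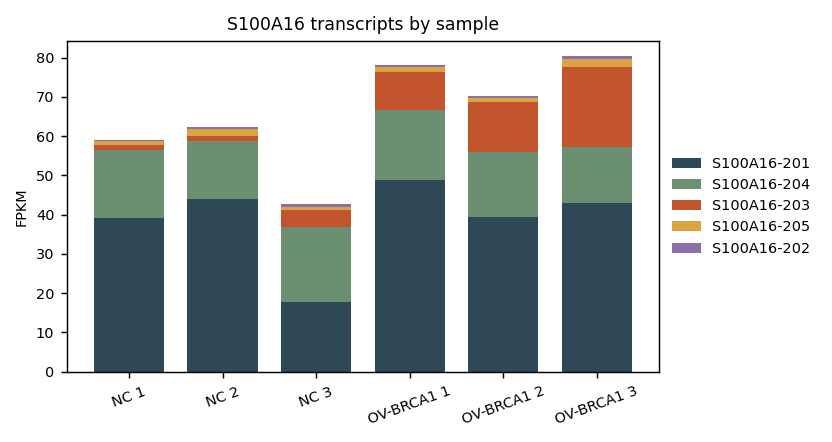
FPKM of the 5 annotated transcripts of S100A16, stacked, in the 3 NC and the 3 OV-BRCA1 samples. The S100A16-203 segment is 9.60 to 20.3 FPKM in the OV-BRCA1 samples and 1.39 to 4.48 FPKM in the NC samples, and the S100A16-201 segment is lowest in NC sample 3.

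S100A9 and S100A8 form calprotectin, the heterodimer that neutrophils, monocytes and stressed squamous epithelium release, and S100A7 (psoriasin) is an antimicrobial member made by inflamed skin. S100A9 (ENSG00000163220, chr1:153357854-153361027, plus strand) was low, with 4.44, 4.26 and 1.73 FPKM in OV-BRCA1 samples 1, 2 and 3 against 1.64, 1.02 and 0.880 FPKM in NC samples 1, 2 and 3. OV-BRCA1 sample 3 was only just above NC sample 1, so the groups came close to overlapping. These values correspond to an estimated 39.97, 39.5 and 13.6 fragments in the OV-BRCA1 samples and 14.7, 10.7 and 9.71 in the NC samples. The log2 fold change was 0.99 (SE 0.29, 95% confidence interval 0.28 to 1.69, limma adjusted p = 0.0415), and the ratio of mean FPKM was 2.94. The call was lost without OV-BRCA1 replicate 1 (limma adjusted p = 0.114), OV-BRCA1 replicate 2 (0.116), NC replicate 1 (0.0552), NC replicate 2 (0.105) or NC replicate 3 (0.114), and without OV-BRCA1 replicate 3 the log2 fold change was 1.31 (0.00599). It was also lost without the filter on low values (0.108) and when adjusted over transcripts (0.153).

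S100A8 (ENSG00000143546), 29 kb from S100A9, was under the filter. It was listed at 0 in all 3 OV-BRCA1 samples and at 0.238, 0.119 and 0.0767 FPKM in NC samples 1, 2 and 3, an estimated 1.96, 1.19 and 0.805 fragments. At this depth no difference in S100A8 could be detected, and S100A9 was above S100A8 in every sample. S100A7 (ENSG00000143556) was listed at 0 in all 6 samples, as were its close relatives S100A7A and S100A7L2 and the third calgranulin, S100A12. A list of 12 neutrophil and monocyte markers had 2 tested genes: 5 were listed at 0 in all samples, namely PTPRC, CSF3R, FCGR3B, MPO and FCN1, and the summed level of the list ran from 31.3 to 37.3 FPKM in the OV-BRCA1 group against from 22.04 to 24 FPKM in the NC group. The tested markers were CD68, a lysosomal protein, at 26.3 against 3.43 FPKM (log2 fold change 2.63), and CD14, a coreceptor of TLR4, at 7.80 against 19.4 FPKM (log2 fold change -1.22). The other 5 markers, AZU1, CD163, ELANE, ITGAM and LYZ, were above 0 in at least 1 sample and under 0.5 FPKM in all. The part of these markers in the S100A9 values was not tested.

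S100A4 (metastasin, ENSG00000196154, chr1:153543613-153550136, minus strand) binds nonmuscle myosin, including the product of MYH9, and is a marker of fibroblasts and motile cells. Its level was 6.89, 4.21 and 6.32 FPKM in OV-BRCA1 samples 1, 2 and 3 against 6.78, 10.39 and 13.05 FPKM in NC samples 1, 2 and 3. The groups overlapped through NC sample 1. The log2 fold change of -0.68 had a 95% confidence interval from -1.30 to -0.07 and was not called (limma adjusted p = 0.0806), but without NC replicate 1 it was -0.92 and was called (limma adjusted p = 0.0294). With the most abundant transcript alone it was -0.23 (limma adjusted p = 0.824), and without each of the other samples it was -0.80 to -0.49 and not called. S100A4 overlaps S100A3 on the same strand by 2044 bases, and S100A3 was at 1.495 against 2.09 FPKM and was not called (limma adjusted p = 0.221). Of 10 fibroblast markers, 2 were tested, COL1A1 fell (log2 fold change -0.79, limma adjusted p = 0.00106), FAP was not called (log2 fold change 0.28, limma adjusted p = 0.124) and LUM and POSTN were listed at 0 in all samples. The summed level of this list was 5.59 to 6.15 FPKM in the OV-BRCA1 group against 7.55 to 8.78 FPKM in the NC group, and its part in the S100A4 values was not tested.

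S100A2 (ENSG00000196754, chr1:153561108-153567890, minus strand) is a mostly nuclear member of the basal layer of squamous epithelium. Its level was 2.87, 4.599 and 3.28 FPKM in OV-BRCA1 samples 1, 2 and 3 against 4.002, 2.82 and 3.54 FPKM in NC samples 1, 2 and 3. The values of the groups were interleaved. The log2 fold change was 0.03 with a 95% confidence interval from -0.38 to 0.44 (limma adjusted p = 0.903), an interval that allows a difference in either direction.

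The summed FPKM of the 21 S100 genes was 2793, 2718 and 2808 in OV-BRCA1 samples 1, 2 and 3 against 2848, 3078 and 3038 in NC samples 1, 2 and 3. The highest OV-BRCA1 sum was just below the lowest NC sum, with means of 2773 ± 48.0 and 2988 ± 123 (SD, n = 3), and as a share of all FPKM the sum overlapped, at 0.610%, 0.593% and 0.608% against 0.592%, 0.629% and 0.635%. The makeup of the sum differed between the groups. S100A11 took 52.6% ± 1.68 of the sum in the OV-BRCA1 group against 41.3% ± 1.64 in the NC group, and S100P 13.5% ± 0.288 and 8.003% ± 0.127. S100A6 took 22.4% ± 0.406 and 33.7% ± 0.915, and S100A10 6.75% ± 0.612 and 12.1% ± 0.303. None of these 4 shares overlapped between the groups, and S100A11, S100A6, S100P and S100A10 together made up 94.2% to 96.6% of the sum in every sample. In the NC group the order by level was S100A11, S100A6, S100A10 and S100P, and in the OV-BRCA1 group S100A11, S100A6, S100P and S100A10, each neighbour in both orders being separated in all 3 samples. The low members S100A2 and S100A9 at 3.58 and 3.47 FPKM in the OV-BRCA1 group did not differ beyond their spread.

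**Figure D4:**
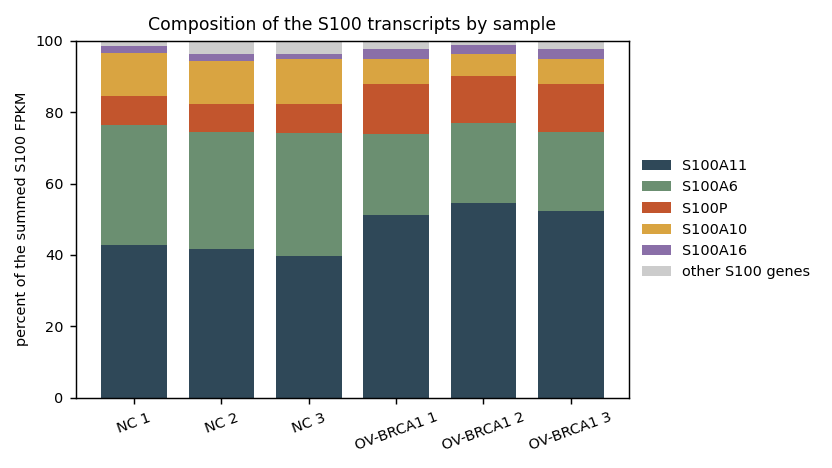
Share of each S100 gene in the summed FPKM of the 21 S100 genes, as stacked bars from 0 to 100 percent, in the 3 NC and the 3 OV-BRCA1 samples. The S100A11 and S100P segments are wider and the S100A6 and S100A10 segments narrower in the OV-BRCA1 samples.

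Outside the 10 genes, 3 further S100 genes were tested and none was called. S100A1, best known from muscle, had a log2 fold change of -0.30 (limma adjusted p = 0.148), and S100A3 of -0.32. S100A13, which takes part in the release of FGF1, had 48.9, 19.2 and 47.2 FPKM in OV-BRCA1 samples 1, 2 and 3 against 22.8, 97.4 and 93.2 FPKM in NC samples 1, 2 and 3 (log2 fold change -0.73, limma adjusted p = 0.415). One sample of each group lay far below the others, and most of the drop was in 1 transcript. S100A13-202 was at 0.576 FPKM in OV-BRCA1 sample 2 and 2.08 FPKM in NC sample 1, and at 33.6 to 72.9 FPKM in the other 4 samples. Of the 21 S100 genes, 6 were listed at 0 in all samples.

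The 9 members on chromosome 1 lie between S100A10 and S100A16, a stretch of 1630 kb (chr1:151982915-153613145) that holds 83 genes. S100A10 and S100A11 form one end, separated from S100A9 by 1310 kb, and S100A6, S100A4, S100A2 and S100A16 lie close together at the other. At one end S100A10 fell and S100A11, the next member 38.1 kb away, rose. At the other, S100A6 fell, S100A4 and S100A2 next to it were not called (log2 fold changes -0.68 and 0.03), and S100A16, whose call depended on single samples, was called higher. Of the 83 genes, 54 were listed at 0 in all samples and 9 were tested, 7 of them members and the other two BX470102.1 and S100A3, neither of which was called. The 5 genes that passed 10 FPKM in any sample were the members S100A10, S100A11, S100A6, S100A4 and S100A16. A list of 32 genes of the epidermal differentiation complex, among them FLG, IVL, LOR and the SPRR and LCE families of the cornified envelope, had no gene over 0.5 FPKM in any sample, and 24 were at 0 throughout. The summed FPKM of that list was 0.233 to 0.376 in the OV-BRCA1 group against 0.170 to 0.435 in the NC group, so abundant S100 genes stood at both ends of a stretch that was otherwise close to silent in SiHa cells.

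**Figure D5:**
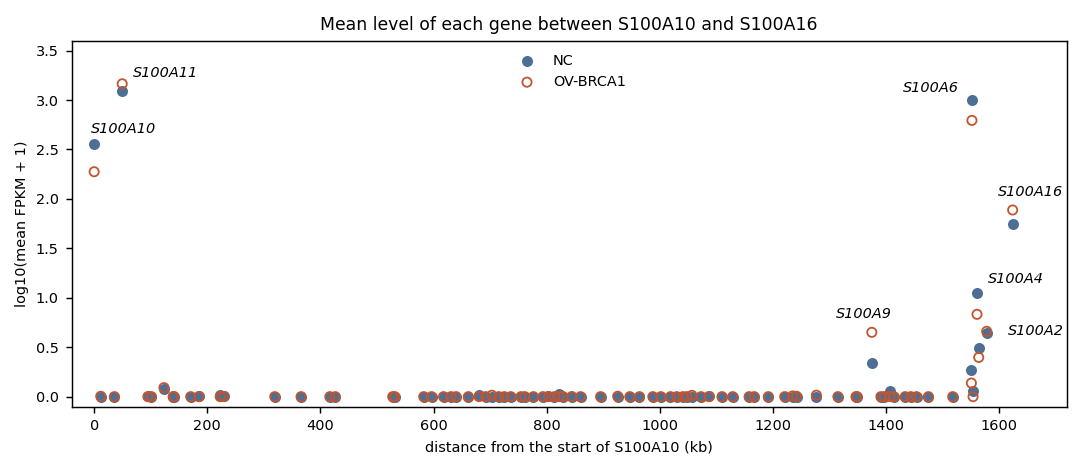
Mean level, as log10 of the mean FPKM + 1, of each of the 83 genes between S100A10 and S100A16 against the distance of the gene from the start of S100A10 in kb, for the NC group (filled) and the OV-BRCA1 group (open). S100A10, S100A11, S100A6 and S100A16 stand well above the row of genes at or near 0, with open points below filled ones for S100A10 and S100A6 and above them for S100A11 and S100A16.

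Among 16 binding partners of S100 proteins, 14 were tested, 1 rose and 3 fell, with a median log2 fold change of -0.10, beside 16.4% higher and 18.9% lower over all genes tested. EZR rose, and AHNAK, ANXA5 (log2 fold change -0.35, limma adjusted p = 0.00628) and ANXA6 (-0.38, limma adjusted p = 0.0481) fell, the latter being annexins that bind membranes when calcium rises. ANXA1, the partner of S100A11, was at 295.3 ± 6.16 FPKM in the OV-BRCA1 group against 324.2 ± 16.5 FPKM in the NC group and was not called (log2 fold change -0.13, limma adjusted p = 0.0805), although its groups did not overlap. CACYBP, the partner of S100A6, and MYH9, the partner of S100A4, were not called either (limma adjusted p = 0.235 and 0.101).

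Among 9 receptors and signal carriers for released S100 proteins, 7 were tested, 2 rose and 1 fell, with a median log2 fold change of 0.45, beside the same 16.4% and 18.9% over all genes. TLR2 and TLR4, which sense microbial products and can respond to released calgranulins, rose: TLR2 was at 1.44, 1.41 and 1.57 FPKM in OV-BRCA1 samples against 0.266, 0.256 and 0.429 FPKM in NC samples (log2 fold change 0.91, limma adjusted p = 8.64e-04), and TLR4 at 5.05, 5.33 and 4.90 against 3.15, 1.46 and 2.87 FPKM (log2 fold change 0.84, limma adjusted p = 0.0210). TLR2 was under the filter of 0.5 FPKM in every NC sample, so it entered the test only through the OV-BRCA1 group. Its call, and its place in the count of genes that rose, thus rest in part on the filter. AGER, the receptor RAGE, fell from 2.51 ± 0.388 to 1.58 ± 0.338 FPKM (log2 fold change -0.44, limma adjusted p = 0.0463). The adaptor MYD88 had a log2 fold change of 1.60 but overlapping groups and was not called (limma adjusted p = 0.0810), and LY96, the TLR4 coreceptor MD-2, was listed at 0 in all samples but OV-BRCA1 sample 2, at 0.511 FPKM.

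EF-hand proteins outside the S100 family gave a view of other calcium sensors. Of 28 such genes 23 were tested, 3 rose and 6 fell, with a median log2 fold change of -0.09, again beside 16.4% and 18.9% over all genes. GCA (grancalcin) rose by 0.69 on the log2 scale (limma adjusted p = 0.00134) and the reticulum protein RCN1 by 1.45 (limma adjusted p = 0.00927), while SRI (sorcin) fell by 0.43 (limma adjusted p = 0.00125). CALM3, which codes for calmodulin, fell by 0.29 (limma adjusted p = 0.0381). Of these 23, RCN1 alone passed the criterion with a log2 fold change of 1 in either direction, and none of the 8 S100 genes did. Over all genes tested, 3.99% passed it.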

How the data were processed

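The data were mRNA sequencing of SiHa cells, 3 OV-BRCA1 and 3 NC samples, grouped by their labels. The authors deposited FPKM for 199167 transcripts, normalized for transcript length and mapped fragments. The submitters' processing notes name FastQC, HISAT2 and hg38. The quantification tool, annotation and use of strand are not given in the sources used here. Genes were named and placed by GENCODE release 29 (198868 transcripts matched), and FPKM were summed per gene.

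Because the files hold no counts, limma (version 3.58.1, R 4.3.3) was run with trend on log2(FPKM + 1), without covariates, and adjusted by Benjamini-Hochberg. Genes needed 0.5 FPKM in 3 samples. Whole reads were not recovered: 34.0% to 39.9% of low values lay within 0.1 of a whole fragment, so depths are estimates and cover counting error only. The fit was tested on simulated data first. Python 3.11.15 was used for the rest. The 10 genes and all gene lists were chosen with earlier results of these data known. Genes were named if they were members, other S100 genes tested, or in the lists of partners, receptors, EF-hand proteins or markers. The other gene lists covered antimicrobial and squamous genes. Alternatives changed the pseudocount, filter, scaling, estimation, transcript choice, pairing and samples.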

Additional observations from a re-analysis of the deposited data

How the results depend on the processing

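S100A6, S100A10, S100A11 and S100P kept their direction and call under all 14 alternatives, with log2 fold changes of -0.74 to -0.66, -1.002 to -0.86, 0.20 to 0.28 and 0.61 to 0.69. Over the 8 genes and 14 alternatives, 94 values kept direction and call, 15 lost the call (8 of S100A16 and 7 of S100A9), 1 gained it (S100A4) and 2 changed sign, both of S100A2, at -0.122 without OV-BRCA1 replicate 2 and at -0.0755 when NC replicate 2 was left out, where leaving out each sample in turn gave -0.122 to 0.145. Members called higher numbered 2 with the most abundant transcript of each gene, 2 without a filter on low values and 2 to 3 when a sample was left out. Over all genes, 2426 of 33326 were called higher without the filter, and 1906 to 2174 when a sample was left out, so calls were fewer over all genes too. Members called lower numbered 2 to 3 when a sample was left out. Members past a log2 fold change of 1 numbered 1 with median of ratios scaling, 1 with a pseudocount of 0.1, which was S100A9 in both, and 0 to 2 when a sample was left out, the 2 being S100A9 and S100A10 without OV-BRCA1 replicate 3. With the most abundant transcript, 913 genes were called higher and 672 lower over all genes, against 2674 and 3090, and the cause was not tested. Samples with the same number did not deviate together (correlations -0.0244, 0.0250 and 0.0136), so the numbers do not pair samples. With the replicate number as a block, 3 members were called higher and 2 lower, and 2159 and 2436 of all genes.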

Other observations

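A list of 19 epithelial antimicrobial and alarmin genes, to which S100A7, S100A8 and S100A9 are usually counted, was read beside them. Of these, 11 were tested, 8 rose and 1 fell, with a median log2 fold change of 0.84, and 4 passed a log2 fold change of 1. Over all genes tested, 16.4% were called higher, 18.9% lower and 3.99% passed that fold change. The list was chosen with earlier results of these data known. KRT6A (0.0278, 0.2497 and 0.2405 FPKM in NC samples) and SERPINB4 (0.439, 0.636 and 0.431 FPKM) passed the filter only through their OV-BRCA1 values. The count that rose and the median therefore rest in part on the choice of list and on the filter. CCL20, a chemokine that also kills bacteria, had 32.4, 34.1 and 35.1 FPKM in OV-BRCA1 samples 1, 2 and 3 against 1.77, 1.19 and 0.768 FPKM in NC samples 1, 2 and 3 (log2 fold change 3.98, limma adjusted p = 2.14e-05). Serum amyloid A1 (SAA1) rose from 28.7 ± 2.07 to 90.9 ± 5.37 FPKM (log2 fold change 1.63, limma adjusted p = 3.07e-05), and the protease inhibitor elafin (PI3) from 62.2 ± 2.62 to 115.3 ± 2.08 FPKM (log2 fold change 0.88, limma adjusted p = 7.36e-05). The SAA1 value is uncertain, since its near-identical copy SAA2 can share reads with it. SLPI, a related inhibitor, fell from 563.2 ± 4.98 to 510.4 ± 19.0 FPKM (log2 fold change -0.14, limma adjusted p = 0.0380). The defensin DEFB4A, RNASE7 and IL36G were listed at 0 in all samples, as was S100A7.

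Of 12 squamous epithelial markers, 6 were tested, 4 rose and 1 fell, beside the same shares over all genes. Of the 4, KRT18, KRT8 and EPCAM belong to simple rather than squamous epithelium. KRT18 and KRT8 rose by 0.39 and 0.20 on the log2 scale (limma adjusted p = 9.76e-04 and 0.0282), EPCAM by 1.12 (limma adjusted p = 0.00142) and the desmosome gene DSP by 0.41 (limma adjusted p = 0.00179). KRT17 fell from 1434 ± 8.67 to 1033 ± 90.3 FPKM (log2 fold change -0.48, limma adjusted p = 0.00263).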
